A study of Mus musculus with 34 samples.

Results

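The ventral midbrain floor plate genes described here were 10 genes taken by name from the deposited count table: Shh, Lmx1a, Lmx1b, Foxa1, Foxa2, Msx1, Corin, Otx2, Wnt1 and Nkx6-1. All 10 had a row among the 29968 entries of the table, and each was followed through the 28 RNA-seq libraries of the study. The genes were chosen for their role, with earlier results of these data known.

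The floor plate is the strip of cells along the ventral midline of the neural tube. It secretes Sonic hedgehog (Shh), which sets the identity of ventral progenitors, and in the midbrain the floor plate is itself neurogenic and gives rise to dopaminergic neurons. The forkhead factors Foxa1 and Foxa2 and the LIM homeodomain factors Lmx1a and Lmx1b act in these progenitors, Wnt1 and Otx2 give them their midbrain position, and their presence is a standard test of cultures directed to midbrain dopaminergic neurons.

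The study carried mouse embryonic stem cells (ESCs) through epiblast stem cells to neuronal progenitor cells (NPCs, day 5 of differentiation) and immature dopaminergic neurons (day 16). All groups were labelled 129Sv on a C57BL/6N background and were grown under the same protocol. Control cells were +/+, deletion cells (df/+) carried a heterozygous deletion of 7qF3, the mouse region syntenic with human 16p11.2, and duplication-deletion cells (df/dp) carried that deletion on 1 chromosome and the reciprocal duplication on the other. One label of the duplication-deletion NPCs names the deletion alone, while their titles and genotypes name both. The number of independent lines behind each genotype is not given in the sources used here. The groups were ESCs with 3 control, 3 deletion and 3 duplication-deletion libraries, NPCs with 5, 3 and 3, and neurons with 4, 2 and 2. The labels do not say that replicates were separate differentiations, so the p-values below measure the spread between these libraries, which may be partly technical. None of the 10 genes lies on chromosome 7, the chromosome of the 7qF3 interval.

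Library totals ran from 5578151 to 78814037 counts, and 6 libraries were shallow, with at most 24054000. Levels are given as CPM (counts divided by library size) on library sizes scaled by edgeR's TMM method. They compare a gene between libraries and not 1 gene with another, because gene length was not taken into account. The genotype labels were checked on Taok2, a gene of the interval. It stood at 53.5 ± 4.62 CPM (SD, n = 5) in control NPCs and at 28.3 ± 7.98 CPM (SD, n = 3) in deletion NPCs. In duplication-deletion NPCs it stood at 57.1 ± 8.90 CPM (SD, n = 3), near control and not near the deletion. Aldoa, also of the interval, did not separate deletion neurons (376 ± 140 CPM, SD, n = 2) from control neurons (410 ± 148 CPM, SD, n = 4). The stage labels were checked on Pou5f1, a pluripotency factor, at 260 ± 92 CPM (SD, n = 3) in control ESCs and at most 0.634 CPM in any NPC or neuron library. In this bulk RNA, fewer cells of a type and less RNA per cell cannot be told apart.

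All 10 genes were higher in control NPCs than in control ESCs by edgeR's quasi-likelihood test (Benjamini-Hochberg adjusted p below 0.05 over 18365 genes), where 21% of all tested genes were called higher and 20.5% lower. The same 10 were higher in deletion cells, where 16.7% of 18183 genes were called higher and 13.2% lower, and in duplication-deletion cells, where 17.5% of 18565 genes were called higher and 14.2% lower. The median log2 fold change of the 10 was 5.68 in control, 5.68 in deletion and 6.01 in duplication-deletion cells, against medians over all tested genes of 0.01, 0.10 and 0.07. Lmx1b, Shh, Msx1, Corin, Wnt1 and Nkx6-1 passed the filter on low counts only through libraries of the later stages, so a difference in these 6 was built into their being tested. Only Foxa1, Foxa2, Lmx1a and Otx2 passed that filter among ESC libraries alone. In each genotype the ESC and NPC libraries of all 10 genes had separate ranges, as did 21.5%, 26.3% and 23.9% of all tested genes in the upward direction.

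**Figure D1:**
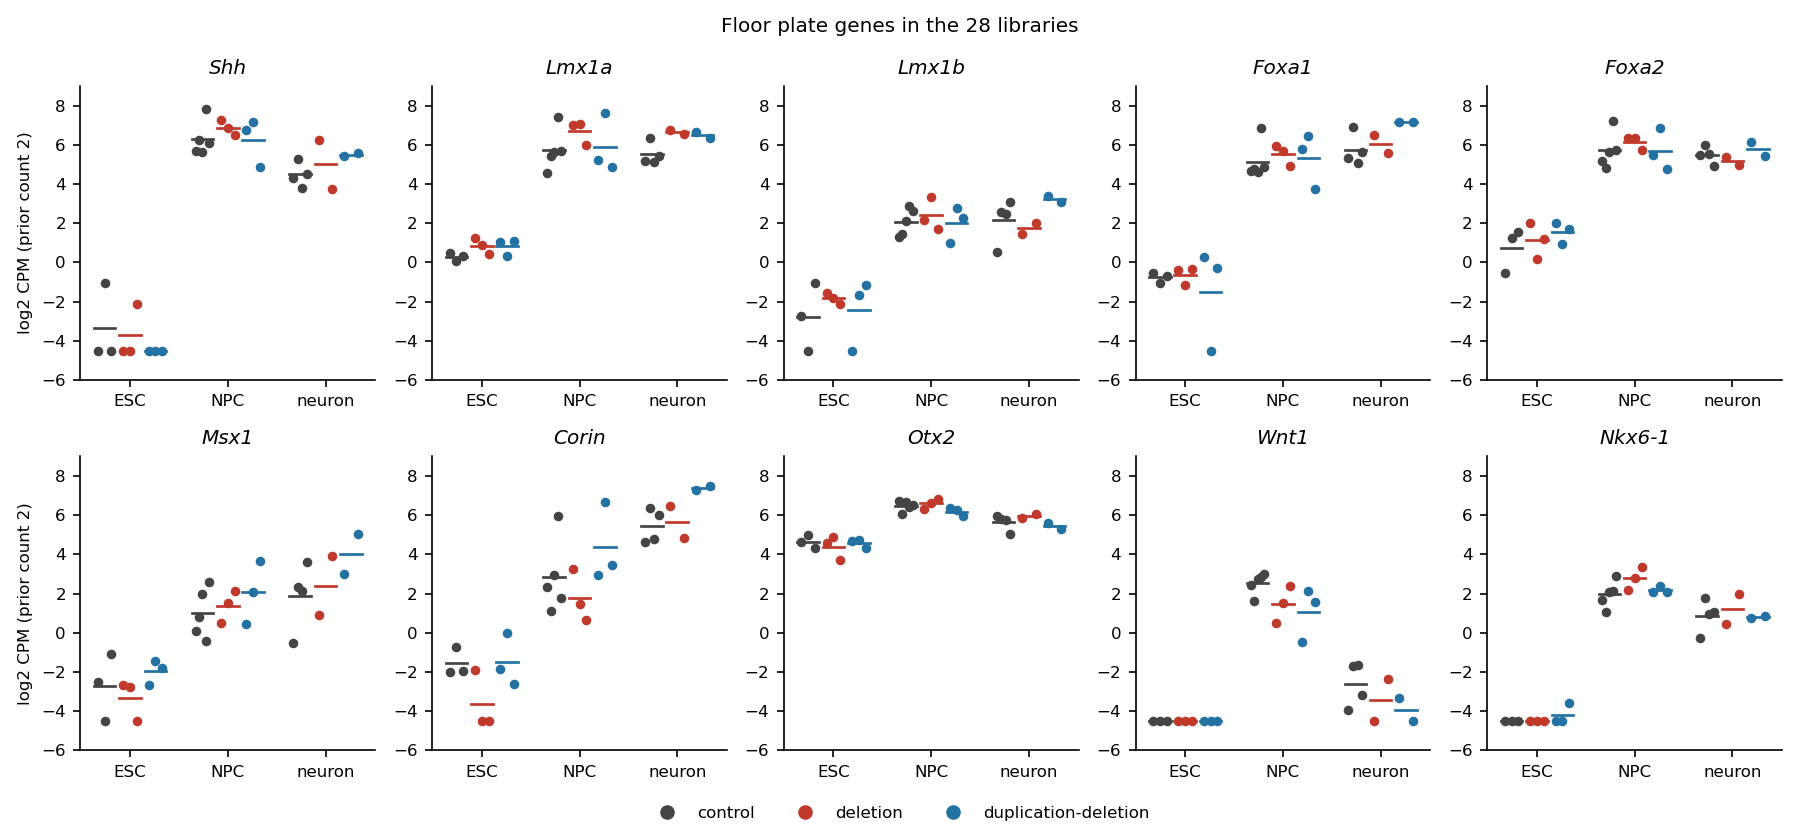
Level of each of the 10 genes in every library (y axis, log2 CPM with a prior count of 2), 1 panel per gene, with stage along the x axis and genotype by colour; points are libraries and bars group means. The ESC groups are lowest in every panel, Wnt1 returns to at most 0.282 CPM in neurons, and Corin and Msx1 have their highest group mean in duplication-deletion neurons.

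Shh encodes the secreted ligand of the pathway; its transcript lies at chr5:28783380-28793641 (mm9). In control ESCs, Shh was counted in 1 of 3 libraries, at 0.437 CPM (15 counts). Control NPC libraries held 50.8, 76.9, 49.2, 230.2 and 69.2 CPM, and neuron libraries 19.7, 39.3, 13.9 and 23.1 CPM. Every NPC library therefore lay above every neuron library, and control replicate 4 stood far above its 4 fellows. The log2 fold change was 9.23 ± 1.05 (SE, adjusted p = 1.32e-05) from ESC to NPC and −1.95 ± 0.60 (SE, adjusted p = 0.0174) from NPC to neuron. Deletion NPCs held 153, 117 and 91.2 CPM and duplication-deletion NPCs 109, 143 and 29.1 CPM. Deletion ESCs held 1 Shh count in all, a ratio to NPCs of 7905 with a 95% counting interval of 1419 to 312238. Duplication-deletion ESCs held none, and the pooled level of their NPCs was at least 4174-fold higher, computed against 3 counts over the group. Deletion neurons held 76.9 and 13.5 CPM and duplication-deletion neurons 43.2 and 47.4 CPM, and the changes from NPC did not pass in either (log2 fold change −1.41 ± 0.68, adjusted p = 0.171, and −1.05 ± 0.63, adjusted p = 0.306). The entry 9530036O11Rik overlaps Shh in RefSeq, and the expected counts of Shh were not whole numbers in 19 libraries, so its reads could not all be told apart from those of other entries.

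Foxa1 (chr12:58641619-58647108) is a forkhead factor that acts with Foxa2 in the floor plate and the dopaminergic lineage. Control ESCs held 0.646, 0.437 and 0.564 CPM, control NPCs 24.8, 26.9, 24.1, 114 and 29.0 CPM, and control neurons 40.5, 120.0, 33.4 and 49.3 CPM. The rise from ESC to NPC was 6.29 ± 0.77 log2 units (SE, adjusted p = 2.45e-05). The neuron range enclosed the NPC library at 114 CPM, and the change between those stages was 0.51 ± 0.49 (SE, adjusted p = 0.433). Without control NPC replicate 4 that change was 1.25 with an adjusted p of 0.0114. Deletion NPCs held 61.3, 51.1 and 29.9 CPM and deletion neurons 88.8 and 48.2 CPM, while duplication-deletion NPCs spread from 13.3 to 87.6 CPM. Foxa1 was highest as a group in duplication-deletion neurons, at 143.9 and 144.1 CPM. The 250 bases before the RefSeq start of Foxa1, on the minus strand at chr12:57546112-57546361 of GRCm38.p6, held the only forkhead core letters TGTTTAC found upstream of any of these genes, and they are shown because Foxa1 was, of the other 9 genes, the one most like Shh across NPC libraries. The match, read on the opposite strand as GTAAACA, is in capitals.
Foxa1: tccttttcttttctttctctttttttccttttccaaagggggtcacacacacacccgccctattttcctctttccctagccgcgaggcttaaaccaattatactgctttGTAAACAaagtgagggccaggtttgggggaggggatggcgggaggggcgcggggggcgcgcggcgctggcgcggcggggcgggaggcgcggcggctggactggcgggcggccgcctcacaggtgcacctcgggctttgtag
Searched on both strands, TGTTTAC was present in 3.17% of 32851 upstream windows of the same length, so the match is a description of these letters and not a binding site. The Gli letters TGGGTGGTC were present in 0.225% of all windows and in none of the 14 windows available for 9 of the genes; Shh had no window.

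Foxa2 (chr2:147868614-147872705), the partner factor of Foxa1, held 0.646, 2.36 and 2.87 CPM in control ESCs. Control NPC libraries held 36.5, 28.5, 49.5, 146 and 52.3 CPM and control neurons 44.2, 63.8, 45.7 and 30.3 CPM. The NPC level was higher than the ESC level by 5.00 ± 0.67 log2 units (SE, adjusted p = 5.02e-05), and the neuron range lay inside the NPC range (−0.41 ± 0.47, adjusted p = 0.513). Deletion NPCs held 81.7, 80.0 and 53.9 CPM and their neurons 41.7 and 31.2 CPM, so the deletion libraries of the 2 stages did not overlap, although the change did not pass (−0.98 ± 0.48, adjusted p = 0.178). Duplication-deletion NPCs, at 44.5, 116 and 27.2 CPM, enclosed their neurons, at 70.5 and 42.8 CPM. Foxa2 also marks endoderm. A list of 12 endoderm genes summed to between 28.7 and 99.7 CPM in ESC libraries. It summed to 0.609 to 6.08 CPM in NPC libraries and 0.610 to 4.04 CPM in neuron libraries. The part of other cell types in the Foxa2 level of ESCs, NPCs or neurons was not tested.

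Lmx1a (chr1:169619689-169778864) and Lmx1b (chr2:33420056-33496031) are LIM homeodomain factors that specify dopaminergic progenitors. Lmx1a held 1.37, 0.991 and 1.22 CPM in control ESCs, 23.2, 42.7, 49.7, 169.7 and 51.5 CPM in control NPCs and 36.0, 80.7, 34.2 and 43.7 CPM in control neurons. Its rise at the NPC stage was 5.80 ± 0.69 log2 units (SE, adjusted p = 1.96e-05), and its change from NPC to neuron was −0.43 ± 0.47 (SE, adjusted p = 0.482). Lmx1b held 2.42, 2.63, 4.24, 7.36 and 6.21 CPM in control NPCs and 1.38, 5.88, 5.44 and 8.33 CPM in control neurons. Its ESC libraries reached at most 0.434 CPM, and the rise to NPCs was 4.75 ± 0.98 log2 units (SE, adjusted p = 0.00153). Lmx1a and Lmx1b thus had overlapping ranges in control NPCs and neurons. In deletion cells Lmx1a held 127, 133 and 64.3 CPM in NPCs and 109 and 92.7 CPM in neurons, and in duplication-deletion cells 37.2, 194 and 29.3 CPM and 102 and 82.2 CPM. Its neuron libraries lay inside the NPC range in both mutants. Lmx1b ranged from 3.25 to 9.93 CPM in deletion NPCs and from 1.91 to 6.83 CPM in duplication-deletion NPCs. In neurons it held 2.67 and 4.05 CPM with the deletion and 10.2 and 8.38 CPM with the duplication-deletion, so that the duplication-deletion pair lay above every other library of the gene except 1 deletion NPC library.

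Msx1 (chr5:38211730-38215824), a homeodomain factor of dopaminergic progenitors that also marks roof plate and neural crest, held 1.04, 1.73, 3.93, 0.709 and 5.90 CPM in control NPCs. Control ESC libraries held at most 0.434 CPM and control neurons 0.666, 5.00, 4.35 and 12.1 CPM. Its rise to NPCs was 3.89 ± 1.20 log2 units (SE, adjusted p = 0.0181), a call that was lost with limma-voom (adjusted p = 0.101) and without control ESC replicate 1 (0.0683) or 2 (0.0529). With limma-voom the rise of Msx1 also missed the threshold in deletion cells (adjusted p = 0.0696) and duplication-deletion cells (0.0724). Its neuron and NPC ranges overlapped (1.08 ± 0.86, adjusted p = 0.335). Replicate 4 was the lowest of the control NPC libraries for Msx1, although it was the highest for Shh, Lmx1a, Lmx1b, Foxa1, Foxa2 and Corin. In deletion cells Msx1 held 1.38, 2.82 and 4.40 CPM in NPCs and 1.81 and 15.0 CPM in neurons, and in duplication-deletion cells 1.33, 4.18 and 12.6 CPM and 7.98 and 33.2 CPM. Each neuron pair was split widely, and neither change from NPC passed (1.55 ± 0.87, adjusted p = 0.242, and 1.83 ± 0.87, adjusted p = 0.187). An antisense entry, Msx1os, overlaps the gene, and Msx1 counts were not whole in 18 libraries; whether the counting used strand is not given in the sources used here.

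Corin (chr5:72691264-72895779) encodes a transmembrane serine protease used as a surface marker to sort floor plate progenitors. Control NPC libraries held 5.04, 2.15, 7.69, 61.3 and 3.36 CPM, so replicate 4 stood far above the other 4 libraries. Control neurons held 25.2, 81.4, 27.6 and 63.5 CPM. The rise from ESC to NPC was 5.56 ± 1.25 log2 units (SE, adjusted p = 0.0028; 0.105 with limma-voom), and the change from NPC to neuron was 1.67 ± 0.82 (SE, adjusted p = 0.117). Without control NPC replicate 4 the latter became 3.46 with an adjusted p of 0.000166. In deletion cells Corin rose from 9.43, 2.71 and 1.53 CPM in NPCs to 88.3 and 28.5 CPM in neurons, a log2 fold change of 3.67 ± 0.87 (SE, adjusted p = 0.016). Without deletion neuron replicate 1 that change was 2.63 (adjusted p = 0.133), and without deletion NPC replicate 3 its adjusted p was 0.0623. In duplication-deletion cells the neurons, at 158 and 178 CPM, lay above all 3 NPC libraries, at 7.78, 102 and 11.01 CPM, with a change of 2.07 ± 1.01 (SE, adjusted p = 0.198).

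Wnt1 (chr15:98620288-98624261), a ligand made at the midbrain-hindbrain boundary, in the roof plate and along the flanks of the midbrain floor plate, was counted in no ESC library. Control NPC libraries held 5.43, 3.02, 6.71, 7.23 and 8.10 CPM. Pooled over its libraries, the NPC group was at least 185-fold higher than the ESC group, computed against 3 counts over that group. Control neurons held 0.0215, 0.264, 0.282 and 0.0665 CPM. The fall from NPC to neuron was the largest of the 10 genes in control cells, with a log2 fold change of −5.22 ± 0.76 (SE, adjusted p = 0.000177), and it was also called in deletion cells (−5.29 ± 1.57, adjusted p = 0.0469) and duplication-deletion cells (−6.44 ± 1.75, adjusted p = 0.0486). The last rests on 3 neuron counts against 347 in NPCs, a ratio of CPM of 0.0106 with a 95% counting interval of 0.00217 to 0.0311. Deletion NPCs held 1.36, 2.86 and 5.24 CPM and duplication-deletion NPCs 0.691, 4.33 and 2.91 CPM, and every neuron library of either genotype was at or below 0.150 CPM.

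Otx2 (chr14:49277859-49287181), a homeodomain factor of forebrain and midbrain that is also made in the epiblast, was counted in every ESC library, as Lmx1a and Foxa2 were, and had the smallest rise of the 10 genes in each genotype. Control ESCs held 25.1, 32.1 and 19.9 CPM, control NPCs 105, 67.5, 103, 85.6 and 92.5 CPM, and control neurons 62.6, 55.4, 55.0 and 33.3 CPM. The 3 stages had separate ranges in control cells. Otx2 rose by 1.81 ± 0.26 log2 units at the NPC stage (SE, adjusted p = 9.66e-05) and fell in neurons, with a log2 fold change of −0.79 ± 0.22 (SE, adjusted p = 0.0114). Deletion NPCs held 80.9, 98.7 and 115 CPM and their neurons 57.8 and 67.1 CPM, and duplication-deletion NPCs held 81.7, 76.5 and 62.2 CPM and their neurons 48.6 and 39.0 CPM. NPC and neuron libraries did not overlap in either mutant. The fall did not pass in deletion cells (−0.65 ± 0.37, adjusted p = 0.251) or duplication-deletion cells (−0.73 ± 0.28, adjusted p = 0.117). The window upstream of the outermost RefSeq start of Otx2, on the minus strand at chr14:48667645-48667894 of GRCm38.p6, is shown because Otx2 was the only gene of the 9 with a window whose windows held the homeodomain core letters TAATTA, here in capitals.
Otx2: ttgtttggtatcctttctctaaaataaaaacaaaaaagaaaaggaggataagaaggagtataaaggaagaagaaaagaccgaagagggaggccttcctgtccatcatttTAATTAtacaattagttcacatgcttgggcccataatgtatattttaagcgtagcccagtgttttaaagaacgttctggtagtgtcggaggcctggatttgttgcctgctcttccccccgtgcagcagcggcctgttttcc
TAATTA was present in 4.84% of the 32851 windows, and a match of this kind says nothing about which factor, if any, binds.

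Nkx6-1 (chr5:102088216-102093730) marks the basal plate progenitors that flank the floor plate. It was counted in no control or deletion ESC library, and at 0.0402 CPM in 1 duplication-deletion ESC library. Control NPCs held 3.20, 2.01, 4.21, 4.39 and 7.53 CPM and control neurons 0.795, 3.36, 1.88 and 2.07 CPM. Pooled over its libraries, the NPC group was at least 122-fold higher than the ESC group, computed against 3 counts over that group. The neuron and NPC ranges overlapped, and the change did not pass (−1.04 ± 0.54, adjusted p = 0.141). Deletion NPCs held 4.45, 7.00 and 10.1 CPM and their neurons 1.32 and 3.96 CPM, and duplication-deletion NPCs held 4.18, 5.29 and 4.12 CPM and their neurons 1.67 and 1.78 CPM. In both mutants every neuron library lay below every NPC library, and the changes were −1.44 ± 0.76 (adjusted p = 0.225) and −1.38 ± 0.81 (adjusted p = 0.286).

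**Figure D2:**
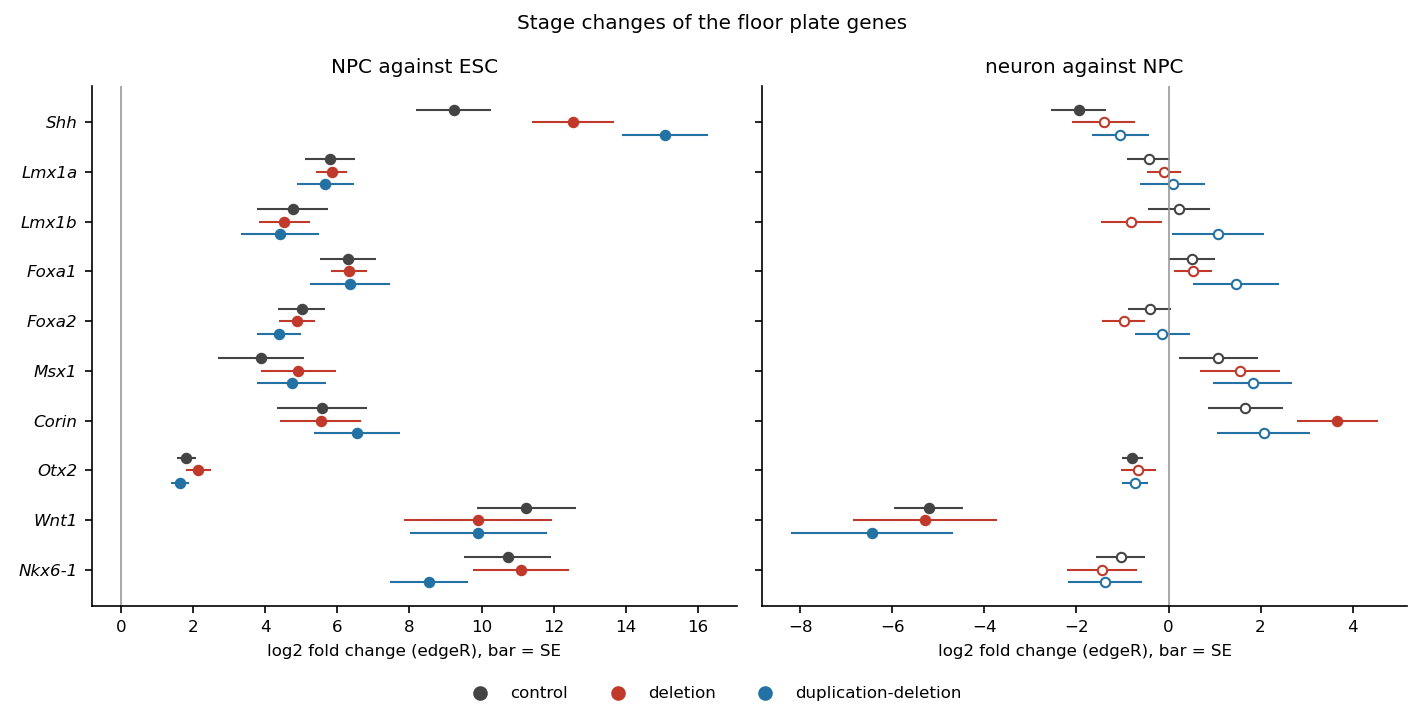
Log2 fold change of each of the 10 genes from ESC to NPC and from NPC to neuron, with 1 SE on each side, by genotype (colour); filled points have an adjusted p below 0.05. All 10 genes rise from ESC to NPC in each genotype, while Wnt1 is the single gene called in all 3 genotypes from NPC to neuron; the fitted folds of Shh, Wnt1 and Nkx6-1 rest on ESC groups at or near 0 counts and are not bounds.

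From NPC to neuron, 3 of the 10 genes were called lower in control cells, Wnt1, Shh and Otx2, where 20.5% of all tested genes were called lower. None was called higher, where 23.2% were; at an unadjusted p below 0.05 the count was also 3 lower and 0 higher. Deletion cells had 1 gene called higher, Corin, beside 10.5% of all tested genes, and 1 called lower, Wnt1, beside 9.39%. Duplication-deletion cells had none called higher, beside 8.04%, and Wnt1 alone called lower, beside 6.95%. Genes whose NPC and neuron libraries did not overlap numbered 3 of 10 in control, 6 in deletion and 6 in duplication-deletion cells, where 20.6% of all tested genes lay higher and 18.3% lower in control cells, 27% and 23.6% in deletion cells, and 27.4% and 25.3% in duplication-deletion cells. DESeq2 called 0 higher in control and duplication-deletion cells, and limma-voom 1, Corin, in each; at an unadjusted p below 0.05 duplication-deletion cells had 0 higher. A test of whether these changes differed between genotypes is reported at the end. It called at most 0.005% of all genes in either direction, so it cannot show that the changes were alike. The calls of Shh and Wnt1 moved with single choices: Shh in control cells had an adjusted p of 0.0571 without control NPC replicate 4, 0.0533 without control neuron replicate 3 and 0.0818 with DESeq2. Wnt1 in deletion cells had an adjusted p of 0.0508 with RLE scaling, and between 0.0768 and 0.134 when deletion NPC replicate 1, 3 or 5 or deletion neuron replicate 1 was left out. Wnt1 in duplication-deletion cells had an adjusted p of 0.0513 with RLE scaling, and between 0.0548 and 0.123 when any of its 3 NPC libraries was left out. Without 1 of its 2 neuron libraries the log2 fold change was −9.87 or −5.47. In both mutants the Wnt1 call was thus lost when any 1 NPC library was left out.

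The order of the 9 groups put the 3 ESC groups lowest for every gene. The highest group mean was in deletion NPCs for Shh (121 CPM), Lmx1a (108 CPM), Foxa2 (71.9 CPM), Otx2 (98.2 CPM) and Nkx6-1 (7.20 CPM), and in control NPCs for Wnt1 (6.10 CPM). It was in duplication-deletion neurons for Lmx1b (9.31 CPM), Foxa1 (144 CPM), Msx1 (20.6 CPM) and Corin (168 CPM). Of the 8 pairs of neighbours in that order, 6 had overlapping libraries for Foxa1 and Corin and 7 for each of the other 8 genes, so the order within the NPC and neuron groups was mostly within the spread of libraries.

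The 10 genes differed in how evenly replicates carried them. Among NPC libraries the within-group SD on the log2 scale was 1.79 for Corin, larger than that of 96.8% of 16783 genes, and 1.26 for Msx1, larger than 87.1%. Lmx1a (1.09), Foxa1 (1.02), Wnt1 (0.918), Shh (0.907), Foxa2 (0.845) and Lmx1b (0.799) also lay above the median gene, at 0.528. Nkx6-1, at 0.578, lay slightly above it, larger than 55.2% of genes. Otx2, at 0.245, was more even than most genes, with 9.84% of genes below it. In neurons Msx1 was the most variable of the 10, at 1.76, and Otx2 the least, at 0.335.

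Shh, Foxa1, Foxa2 and Lmx1a varied together across the 11 NPC libraries, for Foxa2 and Lmx1a in part through 2 of them. Corin did so mainly through those 2. With each library expressed as its log2 deviation from its own group mean, Pearson's r with Shh was 0.98 for Foxa1, 0.84 for Foxa2, 0.81 for Lmx1a and 0.69 for Corin. Foxa2 had an r of 0.93 with Lmx1a and 0.90 with Corin. Otx2 and Wnt1 stood apart from Shh, with r of −0.06 and −0.13, and Msx1 ran against it, with −0.68. These values are descriptions over 11 points that share library, depth and composition, and they carry no p. Control replicate 4 and duplication-deletion replicate 5 lay farthest out for Shh. Without them r with Shh was 0.946 for Foxa1, 0.679 for Lmx1a, 0.644 for Foxa2 and 0.489 for Corin. For Corin the libraries farthest out were control replicate 4 and duplication-deletion replicate 4, and without these 2 its r with Shh was 0.122. Spearman's rho of Corin with Shh over all 11 was 0.373. The same 2 libraries were also the farthest out for Foxa1, Foxa2 and Lmx1a. Without them r with Shh was 0.957 for Foxa1, 0.569 for Foxa2 and 0.534 for Lmx1a, and r of Foxa2 was 0.759 with Lmx1a and 0.617 with Corin. Over all 45 pairs of the 10 genes the median r was 0.304, with 34 pairs positive, and it was 0.0868 without the 2 libraries numbered 4, in control and duplication-deletion cells.

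Other genes of the floor plate moved with Shh across these libraries, and genes of some other lists did so too. Of 15 genes on a list of further floor plate and midbrain dopaminergic progenitor genes with a mean NPC level of at least 1 CPM, 14 had a positive r with Shh (median 0.77), among them Spon1 (0.97), which encodes a floor plate matrix protein, Ntn1 (0.88) and Slit2 (0.86), which encode secreted axon guidance cues, and the proneural factor Neurog2 (0.92). The list summed to 2407 CPM in control NPC replicate 4 and 2429 CPM in duplication-deletion replicate 4, and to 480 to 1602 CPM in the other 9 NPC libraries. Of 5 roof plate genes, 4 had a negative r with Shh and 1 a positive one (median −0.75), with Zic1 at −0.84, Wnt3a at −0.77 and Rspo1 at −0.75. Of 10 genes of the basal and alar plate, 6 were negative and 4 positive (median −0.14, highest 0.58), with the alar plate genes Pax3 (−0.88) and Pax7 (−0.68) among the negative ones. Of 16 hedgehog pathway genes, 6 were positive and 10 negative, with Hhip, an inhibitor induced by the pathway, at 0.58, the receptor Ptch1 at 0.38, and Gli1 (−0.56), Gli2 (−0.82), Gli3 (−0.79) and the coreceptor Gas1 (−0.90) negative. Moving with Shh was not limited to the floor plate list. Of 7 dopaminergic neuron markers all 7 had a positive r with Shh (median 0.66). Of 8 pan-neuronal genes 6 were positive and 2 negative (median 0.64), and of 4 genes of cilia all 4 were positive (median 0.61). Genes of mesoderm were counted in these libraries too. T, the brachyury gene of notochord and primitive streak, ranged from 3.25 to 64.4 CPM in NPCs, highest in duplication-deletion replicate 4. Its r with Shh was 0.66. Of 5 genes of notochord and mesoderm, T among them, 2 had a positive r with Shh and 3 a negative one (median −0.08). The notochord gene Noto was at 0 in every NPC and neuron library. The notochord also makes Shh and Foxa2, and its part in their levels was not tested.

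By likeness over the 11 NPC libraries among 10340 genes, the genes nearest to Shh were Arhgef26 (r = 0.988), Spon1 (0.974) and Gpr37 (0.958), and those nearest to Foxa1 were Gpr37 (0.981), Spon1 (0.980) and Arhgef26 (0.975). Shh and Foxa1 therefore had the same 3 nearest genes outside the 10. Lmx1a was nearest to Atxn7l1 (0.969), Rmst (0.963) and Gramd1b (0.962), Lmx1b to Notch2 (0.953), Rere (0.953) and Nrp2 (0.937), and Foxa2 to Efcab1 (0.980), Rgag4 (0.977) and Pknox2 (0.973). Corin was nearest to Sort1 (0.977), Dnahc9 (0.975) and Slit1 (0.970), and Msx1 to Ddi2 (0.990), Galnt10 (0.971) and Vat1l (0.961). Otx2 was nearest to Ak4 (0.925), Wnt1 to Hmg20b (0.967) and Nkx6-1 to Ints9 (0.967). No p is given for these ranks, and nothing is read from them about shared function or control.

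The hedgehog pathway around Shh also changed with stage in control cells. Of 16 tested pathway genes, 8 were higher and 1 was lower in NPCs than in ESCs, beside 21% of all tested genes higher and 20.5% lower. Smo, the signal transducer, stood at 50.9 ± 24.2 CPM (SD, n = 3) in ESCs and 235 ± 39.5 CPM (SD, n = 5) in NPCs, a log2 fold change of 2.19 ± 0.30. The coreceptor genes Boc (3.42 ± 0.55) and Gas1 (3.68 ± 0.53) and the receptor gene Ptch1 (1.00 ± 0.35, adjusted p = 0.032) also rose, the ventral factor Nkx2-2 was at 0 in ESCs and at least 239-fold higher in NPCs, and Gli2 fell (−1.23 ± 0.39). Pathway genes at or near 0 in ESCs, such as Nkx2-2, could pass the filter on low counts only through later stages. Their difference was thus built into their being tested. From NPC to neuron, 7 of the 16 were lower and none was higher, beside 20.5% and 23.2% of all tested genes. Smo (−1.78 ± 0.27), Gli1 (−2.07 ± 0.39), Gli3 (−3.62 ± 0.41) and Nkx2-9 (−4.85 ± 0.93) fell, as Shh did, while Ptch1 had a value of −0.34 ± 0.31 (SE, adjusted p = 0.404). Deletion cells had 6 of these genes higher and 1 lower at the NPC stage, beside 16.7% and 13.2% of all tested genes, and duplication-deletion cells 6 and 0, beside 17.5% and 14.2%.

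Of 16 tested genes on the list of further floor plate and progenitor genes, 15 were higher and none lower in control NPCs than in ESCs, beside 21% and 20.5% of all tested genes. Genes of the list at or near 0 in ESCs, such as Neurog2, could pass the filter on low counts only through later stages, so their difference too was built into their being tested. Neurog2, Wnt5a (5.31 ± 0.45), a noncanonical Wnt ligand, and Rspo2 (7.75 ± 0.81), a Wnt agonist, were among them; Neurog2 was at 0 in ESCs and at least 1043-fold higher in NPCs. The exception was Pitx3, a factor of postmitotic dopaminergic neurons, at −0.02 ± 1.50. From NPC to neuron 4 rose, with Pitx3 at 6.31 ± 1.04 and En1 at 2.13 ± 0.49, and 3 fell, with Msx2 at −4.42 ± 0.49 and Neurog2 at −2.56 ± 0.40, beside 23.2% of all tested genes higher and 20.5% lower. All values in this and the preceding paragraph marked with ± are log2 fold changes with their SE, except the levels given in CPM.

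No gene of the 10 passed the threshold in any of the 9 comparisons between genotypes, 3 at each stage; in ESCs 4 of the 10 genes passed the filter on low counts, and in NPCs and neurons all 10. In the mutant and control comparisons of ESCs and in deletion against control neurons, 0% of all tested genes were called. In NPCs the share called was 0% higher and 0.00596% lower for deletion against control, and 0.00596% in each direction for duplication-deletion against control. For duplication-deletion against control neurons it was 0.0112% higher and 0.0279% lower, so these fits called almost nothing for any gene. For deletion against duplication-deletion the share was 0% in ESCs, 0.00596% higher and 0.0179% lower in NPCs, and 0.0279% and 0.00558% in neurons. Neither DESeq2 nor limma-voom called any of the 10 genes in these comparisons. At an unadjusted p below 0.05, the 10 genes gave 3 values in duplication-deletion against control neurons, 1 in deletion against control neurons and 1 in deletion against duplication-deletion NPCs.

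The 3 values in duplication-deletion neurons were Corin, Foxa1 and Lmx1a, each higher. Corin held 158 and 178 CPM in the 2 duplication-deletion neuron libraries and 25.2 to 81.4 CPM in the 4 controls, a log2 fold change of 1.74 ± 0.55 (SE), with 1.96 SE on each side reaching from 0.67 to 2.82. Its unadjusted p was 0.0108 and its adjusted p 0.647 with edgeR, and 0.142 with DESeq2. In the authors' deposited table, made with DESeq2, Corin was the only one of the 10 genes called in any comparison that lists them, in these same neurons, with a log2 fold change of 1.75 ± 0.49 and an adjusted p of 0.0385; that table called 0.534% of its entries higher and 0.643% lower there. The table gives Corin no adjusted p in NPCs. Foxa1 held 143.9 and 144.1 CPM against 33.4 to 120.0 CPM (1.22 ± 0.50, unadjusted p = 0.0362, adjusted p = 0.681). Lmx1a held 102 and 82.2 CPM against 34.2 to 80.7 CPM (0.90 ± 0.37, unadjusted p = 0.0373, adjusted p = 0.681). Shh and Lmx1b also had both duplication-deletion libraries above all 4 controls, which makes 5 of the 10 genes with separate ranges, all higher, beside 10.5% of all tested genes higher and 8.52% lower. The ranges of Lmx1a and Lmx1b were barely apart, for Lmx1b at 8.38 CPM against a highest control of 8.33 CPM. All 5 separations rest on the same 2 libraries and are not independent. Foxa2 (0.28 ± 0.35) and Otx2 (−0.25 ± 0.30) had intervals of −0.40 to 0.96 and −0.83 to 0.34 on the log2 scale. The list of further floor plate genes summed to 1984 and 1958 CPM in the duplication-deletion neurons and to 907 to 1560 CPM in the control neurons.

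Deletion neurons showed 1 gene with separate ranges, Lmx1a, at 109 and 92.7 CPM against 34.2 to 80.7 CPM in control neurons (1.06 ± 0.37, unadjusted p = 0.0181, adjusted p = 1.0), beside 4.4% of all tested genes higher and 5.52% lower. Shh differed more between the 2 deletion neuron libraries, at 76.9 and 13.5 CPM, than between the genotype means. T stood at 35.4 CPM in the deletion library with the high Shh value and at 4.46 CPM in the other. Both mutant groups were compared with the same control libraries, so their values are not independent. Between the mutants, 5 of the 10 genes had separate ranges in neurons, beside 18.3% and 21.5% of all tested genes. Corin was at −1.50 ± 0.68 and Lmx1b at −1.44 ± 0.71 for deletion against duplication-deletion. Neither had an unadjusted p below 0.05 in edgeR's test.

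In NPCs, 11 libraries set narrow limits on some genes and wide ones on others. Otx2 differed from control by a log2 value whose interval (1.96 SE on each side) was −0.27 to 0.51 in deletion and −0.70 to 0.09 in duplication-deletion cells. Such intervals use a normal multiplier and are narrower than the edgeR test would give. Shh in deletion NPCs had an interval of −0.74 to 1.45, and a change inside it was not detectable with these libraries. Wnt1 was below control in both mutants (−0.95 ± 0.58 and −1.21 ± 0.59, neither past the threshold), with 1 library of each mutant inside the control range of 3.02 to 8.10 CPM. Nkx6-1 in deletion NPCs held 4.45, 7.00 and 10.1 CPM against 2.01 to 7.53 CPM in control (0.76 ± 0.40). In the authors' deposited table the unadjusted p of Wnt1 was 0.0455 for deletion and 0.0331 for duplication-deletion NPCs, and neither passed after adjustment. Corin showed the widest spread: deletion NPCs held 9.43, 2.71 and 1.53 CPM and duplication-deletion NPCs 7.78, 102 and 11.01 CPM (deletion against duplication-deletion −3.12 ± 1.40, unadjusted p = 0.0457). The libraries at 61.3 and 102 CPM are both numbered 4, 1 of each genotype.

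**Figure D3:**
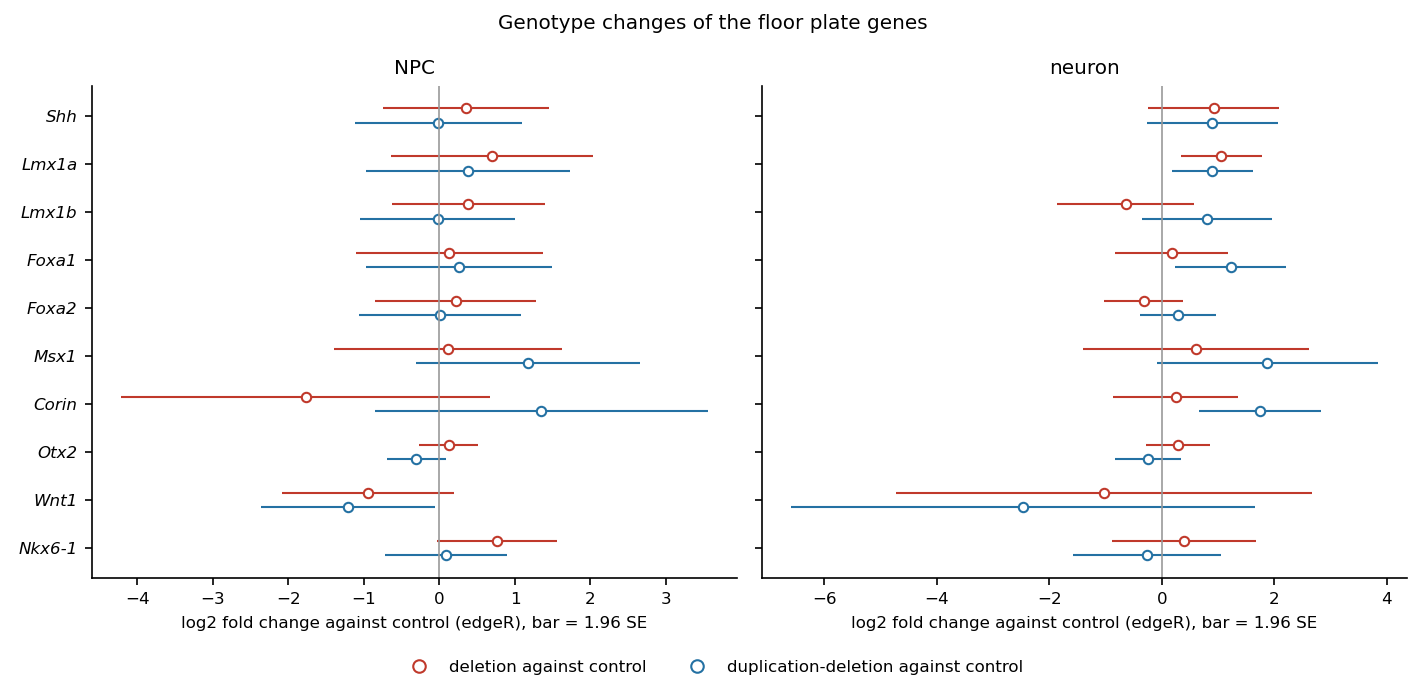
Log2 fold change of each of the 10 genes (x axis) for deletion and duplication-deletion against control in NPCs (left) and neurons (right); bars reach 1.96 SE on each side. No value passed the adjusted threshold. The bars of Corin, Foxa1 and Lmx1a in duplication-deletion neurons and of Lmx1a in deletion neurons lie above 0. That of Wnt1 in duplication-deletion NPCs lies below 0, and those of Otx2 are the narrowest in NPCs. The bars use a normal multiplier and are narrower than the edgeR test, so a bar clear of 0 is not a p below 0.05. In duplication-deletion against control NPCs, 0 of the 10 genes had an unadjusted p below 0.05.

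A test of whether the mutant effect differed between stages, in 1 model over all 28 libraries and 19996 genes, called none of the 10 genes and at most 0.005% of all genes in either direction for any of its 4 differences. The smallest unadjusted p was for Shh in duplication-deletion cells between ESCs and NPCs (difference of log2 fold changes 5.81, unadjusted p = 0.0373, adjusted p = 1.0), and it rests on ESC libraries with 15 Shh counts in controls and 0 in duplication-deletion cells.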

How the data were processed

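Stranded total RNA was sequenced in 28 libraries. Per the submitters' processing notes, reads were handled with STAR 2.6.0c and RSEM 1.3.0 on mm9; the deposited table holds RSEM expected counts per gene, unscaled, 1 column per library. The annotation, strand setting and roles of the tools are not given in the sources used here. A second deposited table, with DESeq2 1.22.2 named in the same notes, gives the authors' log2 fold changes, their p-values and adjusted p-values, a mean normalized signal and a test score, for mutant against control at each stage; its entries were filtered by the authors by a rule not given in full.

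Expected counts were rounded, 92 spike-in entries were left out, and 29876 entries remained. edgeR 4.0.16 (R 4.3.3) was used with filterByExpr, TMM scaling and the robust quasi-likelihood test, fitting the 3 stages of a genotype together and the 3 genotypes of a stage together; p-values were Benjamini-Hochberg adjusted over all genes tested, with a threshold of 0.05. Log2 CPM used a prior count of 2. A fold against a group at 0 was computed against 3 counts over that group. Likeness was Pearson's r over group-centred log2 CPM. Alternatives were RLE scaling, no filter, DESeq2 1.42.0, limma-voom (limma 3.58.1), the replicate number as a block, leaving out each library, and leaving out the 2 shallow sets of libraries (ESC replicates 3 and NPC replicates 5). The scripts were tested on simulated data. Of 33 replicate pairs, 0 were identical, and all differed by more than sampling noise. In ESCs, libraries with the same number deviated together across genes in 9 of 9 pairs (r from 0.209 to 0.671), so the numbers pair those libraries, as seen in the data and not stated in the labels; the block changed no call of these genes there.

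The 10 genes and all gene lists were chosen with earlier results of these data known. Besides the 10, the text names the 3 genes most like each (the nearest alone for 3 of them) and up to 4 genes of a list with the smallest p; the other list genes, among them those given with their r to Shh, Ptch1, Gli2 in the rise and Pitx3 in NPCs, were chosen after their values were seen. Upstream sequences are RefSeq's (GRCm38.p6), matched by symbol for 9 of the 10 genes. 6 Hi-C samples were not analysed here. Depth limits the low genes: in the library of 5578151 counts, deletion ESC replicate 3, a single Shh count stood for 0.187 CPM. Wnt1 and Nkx6-1 were at 0 there. P-values and counting intervals cover the spread of these libraries and counting error only. Some list genes are not reported here.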

Additional observations from a re-analysis of the deposited data

Results flagged for a closer look

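In 5 of 20 combinations of a gene and a group of at least 4 libraries, 1 library stood outside the gap that its fellows' range allows. All 5 were control NPC replicate 4. The rule was Dixon's at the 95% level, which chance exceeds in about 1 of 20 groups of normally distributed values. It was applied to CPM and not to log2 CPM, so the number flagged may depend on that scale. On log2 CPM, Lmx1a stood at 7.41 in that library, with the next highest at 5.69 and the lowest at 4.54. Shh stood there at 230 CPM, where the next highest of the 5 control NPC libraries held 76.9 CPM. Lmx1a stood at 170 CPM against a next highest of 51.5 CPM, and Foxa1 at 114 CPM against 29.0 CPM. Foxa2 stood at 146 CPM against 52.3 CPM, and Corin at 61.3 CPM against 7.69 CPM. The 5 values come from 1 library and are not independent. That library had 50638966 counts, within the range of its group. Its list of further floor plate genes summed to 2407 CPM, against 679 to 891 CPM in the other 4, and its roof plate list to 20.2 CPM, against 64.6 to 119 CPM. Otx2, Wnt1, Nkx6-1, Lmx1b and Msx1 were not outside the gap in it. The part of cell composition in these values was not tested.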

How the results depend on the processing

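The 10 rises from ESC to NPC kept their direction in each genotype under every alternative run, and no comparison between genotypes gained a call. Same-number NPC libraries deviated together in part, with r over 0.1 in 5 of 7 pairs (median 0.391, against −0.047 for other pairs). In neurons 3 of 4 pairs did so (median 0.364, against −0.0562). The best match of a library had its own number in 9 of 14 NPC and 7 of 8 neuron matches. The main tests therefore leave out a possible pairing of these libraries. Stages within a genotype deviated together less, with 4 of 10, 4 of 6 and 2 of 4 pairs over 0.1. Their medians were at most 0.137. With the replicate block, duplication-deletion cells had 6 genes higher in NPCs than ESCs (adjusted p = 0.0658 for Lmx1b, 0.105 for Msx1, 0.210 for Corin, 0.119 for Wnt1). From NPC to neuron they had 1 gene higher, Msx1 (2.78, adjusted p = 0.009), and Wnt1 at −5.96 (adjusted p = 0.067). Control cells had 1 gene higher from NPC to neuron, Corin (2.24, adjusted p = 0.027). Leaving out each library gave 0 to 2 genes higher from NPC to neuron in control cells, 0 to 1 higher and 0 to 1 lower in deletion cells, and 0 to 2 higher and 0 to 1 lower in duplication-deletion cells. Genes lower in deletion neurons numbered 0 with RLE scaling, 2 with limma-voom (Shh −1.87, adjusted p = 0.0401) and 0 without the shallow libraries; in duplication-deletion neurons they numbered 0 with RLE scaling. Limma-voom gave 1 gene higher from NPC to neuron in control and in duplication-deletion cells.

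From NPC to neuron, Lmx1a was 0.0144 with RLE scaling and 0.0153 with DESeq2 in deletion cells and −0.33 without the shallow libraries in duplication-deletion cells, where Foxa2 was 0.0575 with limma-voom. Leave-one-out ranges in control cells were −0.80 to 0.26 for Lmx1a, −0.61 to 0.17 for Foxa2, −0.0653 to 1.25 for Foxa1 and −0.0625 to 0.63 for Lmx1b; in deletion cells −0.35 to 0.17 for Lmx1a and −0.56 to 2.39 for Msx1; and in duplication-deletion cells −0.33 to 1.49 for Lmx1a and −0.52 to 0.68 for Foxa2. Against control, Corin ranged from −2.88 to 0.0194 in deletion and −0.76 to 3.14 in duplication-deletion NPCs, and Shh from −0.81 to 1.68 in deletion neurons. Without duplication-deletion NPC replicate 4, Lmx1a (1.49, adjusted p = 0.034) and Corin (4.20, adjusted p = 0.0101) rose from NPC to neuron. RLE scaling moved the median of all genes from 0.10 to 0.22 in control and from 0.02 to 0.15 in deletion neurons against NPCs. The median r over the 45 gene pairs in NPCs ranged from 0.193 to 0.441 leaving out each library and was 0.547 without the shallow libraries. Of 90 group levels, 6 moved by more than 1 SD with unscaled library totals and 9 with a prior count of 0.5. The cause of each change was not tested.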

Other observations

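In the 8 neuron libraries the median r over the 45 pairs of the 10 genes was 0.261, with 31 pairs positive. Foxa1 and Lmx1a had an r of 0.94 and Shh and Corin one of 0.88, over 8 points that share library and depth. T was highest among neurons in duplication-deletion replicate 4, at 76.1 CPM, where Msx1 was also highest, at 33.2 CPM, and it was 35.4 CPM in deletion replicate 1, where Shh was highest, at 76.9 CPM.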
